A study of Mus musculus with 6 samples.

Results

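The membrane-associated guanylate kinase (MAGUK) scaffold genes Magi1, Magi2, Magi3, Tjp1, Dlg1, Dlg2, Dlg3, Dlg4 and Dlg5 were taken from the count table by their gene symbol. All 9 were found among the 22001 genes of the table, and all 9 were among the 13560 with enough counts to be tested. RNA came from neocortical cells of mouse embryos dissected at E14.5, 24 h after electroporation in utero on E13.5. The control group received a plasmid encoding only the red fluorescent protein mCherry, and the Insm1 group received a plasmid encoding Insm1 as well as mCherry. The labels give the cells of all libraries as mCherry-positive, that is, as cells that had taken up a plasmid, and each group has 3 libraries. Insm1 is a zinc-finger transcription factor expressed by neural progenitors, chiefly those that divide away from the ventricle. The labels name no strain, litter, promoter or number of pooled embryos, so a p-value here sets a difference against variation among libraries whose biological independence is not stated.

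MAGUK proteins are scaffolds built from PDZ domains, which grip the tails of membrane proteins, together with an SH3 or WW module and a guanylate kinase-like domain that binds other proteins in place of acting as an enzyme. At epithelial junctions Magi1, Magi3 and Tjp1 tie adhesion molecules to the actin cytoskeleton, and Dlg1 and Dlg5 belong to the machinery that sets apical and basal sides apart. At excitatory synapses Dlg2, Dlg3, Dlg4 and Magi2 hold glutamate receptors and neuroligins in the postsynaptic density. Radial glia, the progenitors of the neocortex, use such junctions to hold to each other at the ventricle, and their neuronal offspring later build the synapses.

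The plasmid gene was checked before the scaffolds. Insm1 was at 222, 331 and 371 CPM (library-scaled counts, by the TMM method) in controls 1, 2 and 3 and at 1570, 2173 and 1436 CPM in Insm1 libraries 1, 2 and 3, so each library matched its label. On the log2 scale it rose by 2.49 ± 0.26 (SE; adjusted p = 0.0122). Counts per gene cannot separate plasmid from chromosomal transcripts. Library totals lay between 30017645 and 31645135 counts. The 5 markers of neocortical identity summed to 1872 to 2116 CPM in the controls and 2212 to 2440 CPM in the Insm1 libraries, without overlap. In 22.2% of all genes tested the groups did not overlap either. Among these 5 markers 2 were called higher, beside 1.23% of all genes tested. The 5 endothelial markers together reached at most 2.07 CPM and the 4 oligodendrocyte lineage markers at most 1.71 CPM. Control 2 stood apart from controls 1 and 3 in genes of other cells, with a summed 34.3 CPM against 135 and 130 CPM for 6 Cajal-Retzius markers, 47.7 against 0.745 and 5.52 CPM for 6 microglia markers and 3133 against 406 and 186 CPM for 6 erythroid markers. Insm1 libraries 1 to 3 held 1713 to 3670 CPM of erythroid transcripts. Interneuron markers summed to 9.28 to 17.2 CPM in the controls and 6.46 to 9.15 CPM in the Insm1 libraries, also without overlap, pericyte and meningeal markers to at most 5.15 CPM and choroid and hem markers to at most 4.11 CPM, and mitochondrially encoded genes to 16070 to 19360 CPM.

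Forced expression of Insm1 left most of the scaffold genes without a detectable change, and the members that moved furthest down were Magi1 and Magi3. A gene is called here where edgeR's quasi-likelihood test gave a Benjamini-Hochberg adjusted p below 0.05 over all 13560 genes. Of the 9 members, 1 was called lower (Magi1), none was called higher and 8 did not pass. Across all genes tested 3.35% were called, 2.12% lower and 1.23% higher, so 1 call among 9 genes is a count too small to set the group apart from the background. At an unadjusted p below 0.05 there were 2 members, Magi1 and Magi3. The share of all genes at that level was not counted, so this number is not read as a difference from the background. The median log2 fold change of the members was -0.11, with 6 negative and 3 positive, beside a median of -0.01 over all genes, of which 51.9% were negative. Groups did not overlap in 4 members, with all Insm1 libraries below the controls in Magi1, Magi3 and Dlg3 and above them in Dlg4. Over all genes tested such a separation was seen in 22.2%, and in 11.8% with Insm1 below control.

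**Figure D1:**
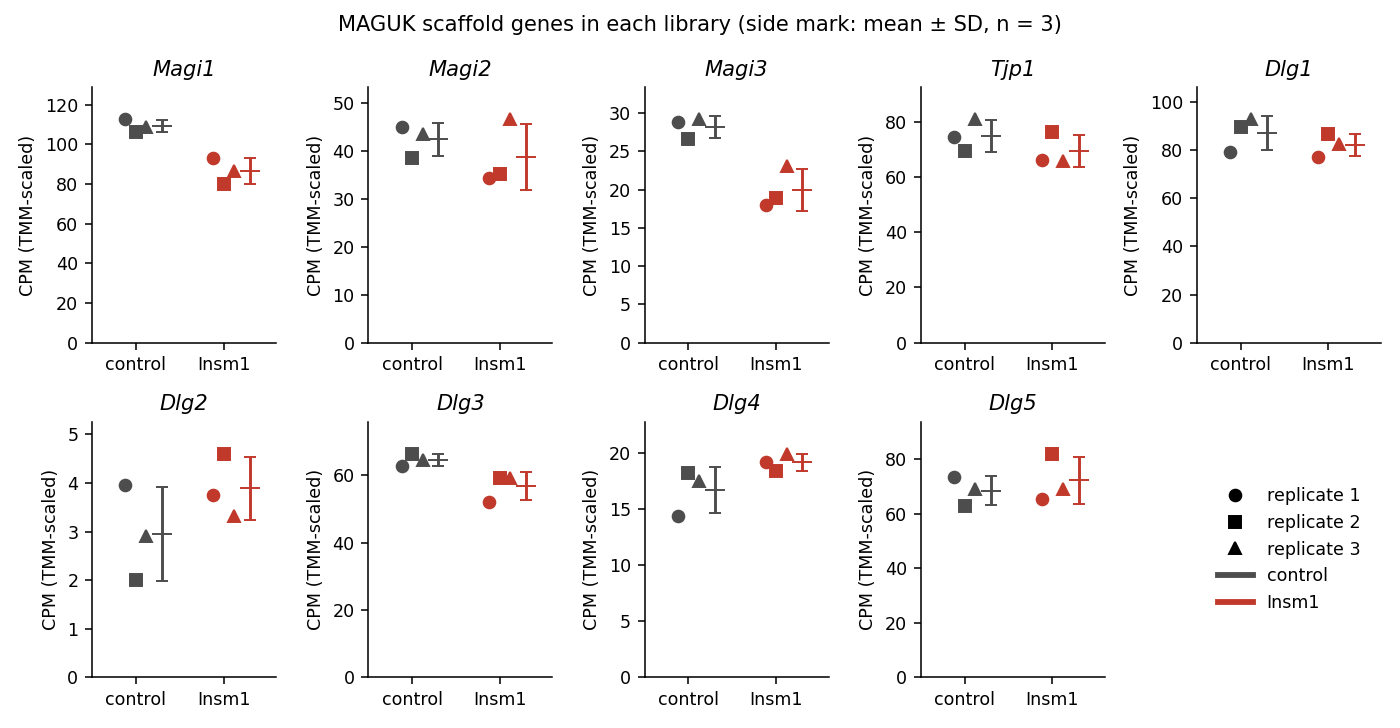
Each panel shows the TMM-scaled CPM of a member in the 3 control (grey) and 3 Insm1 (red) libraries, with marker shapes for the replicate number and a side mark for the mean ± SD (n = 3). The axes start at 0. Magi1 and Magi3 have all Insm1 libraries below all controls, whereas Magi2, Tjp1, Dlg1, Dlg2 and Dlg5 overlap.

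Magi1, a Magi protein of epithelial junctions, fell in cells that received Insm1. It was at 113, 106 and 109 CPM in controls 1, 2 and 3 and at 93.2, 80.1 and 86.8 CPM in Insm1 libraries 1, 2 and 3. Every Insm1 library was lower than every control, with the narrowest gap between control 2 and Insm1 library 1. The mean went from 109 ± 3.14 to 86.7 ± 6.56 CPM (SD, n = 3), 1.26-fold lower, or -0.33 ± 0.077 (SE) as a log2 fold change. The adjusted p of 0.0477 lay just inside the threshold. The direction held in every alternative, but the call was kept in only 1 of the 6 fits that each left out a library, that without Insm1 library 1 (0.0417). Leaving out a control gave an adjusted p of 0.171 (control 1), 0.0638 (control 2) or 0.178 (control 3), and leaving out Insm1 library 2 or 3 gave 0.14 or 0.142.

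Magi3, its relative at the same junctions, showed the larger fitted drop of the pair but did not pass the test. Its values were 28.9, 26.6 and 29.2 CPM in controls 1, 2 and 3 and 17.9, 18.9 and 23.1 CPM in Insm1 libraries 1, 2 and 3. The groups did not overlap, and Insm1 library 3 was closest to the controls. The means were 28.2 ± 1.43 and 20.0 ± 2.76 CPM (SD, n = 3), a ratio of 1.41, or -0.50 ± 0.13 (SE) on the log2 scale (adjusted p = 0.0738). Within libraries the log2 ratio of Magi1 to Magi3 counts overlapped between the groups. It was 1.96, 2.00 and 1.89 in the controls and 2.38, 2.08 and 1.91 in the Insm1 libraries. Whether the drops of Magi1 and Magi3 differ was not tested. DESeq2, which called 7.6% of its genes, called Magi3 lower (adjusted p = 0.0141) and Magi1 too (0.00486), and it called no other member.

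Magi2, the Magi protein of synapses and kidney podocytes, was at 45.1, 38.6 and 43.6 CPM in the controls and 34.4, 35.3 and 46.7 CPM in Insm1 libraries 1 to 3. Insm1 library 3 was above every control and the other Insm1 libraries below every control. Its log2 fold change was -0.13, with a 95% interval from -0.42 to 0.16 (adjusted p = 0.706). The ratio of Magi2 to Magi3 counts within a library, which no scaling between libraries can alter, was higher in every Insm1 library. The log2 ratios were 0.94, 0.90 and 1.01 in the Insm1 libraries and 0.64, 0.54 and 0.58 in controls 1, 2 and 3. This difference follows from the values of both genes and is no separate result. Apart from their group means the Magi2 and Magi3 values varied together, with a Pearson r of 0.98 between their deviations over the 6 libraries, the largest in size of the 36 member pairs, while that of Magi1 with Magi3 was -0.06. Dlg2 with Dlg4 (-0.92) and Magi1 with Dlg3 (-0.86) were the next largest in size. These are descriptions over 6 points that share library and scaling.

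Markers of apical progenitors, the radial glia at the ventricle, moved the same way as Magi1 and Magi3. Of 9 markers, 4 fell (Nes, Slc1a3, Fabp7 and Vim), none rose and 5 did not pass, with a median of -0.53. Over all genes tested 2.12% were called lower and 1.23% higher, and in 22.2% the groups did not overlap. The summed level of the 9 apical markers was 2966 to 3449 CPM in the controls and 2225 to 2718 CPM in the Insm1 libraries, without overlap. The summed level of 10 neuron markers was 6582 to 6999 CPM and 7542 to 8169 CPM, but its members did not move together. Of the 10, 3 rose, 7 had positive and 3 negative log2 fold changes, and Mapt and Stmn2 had every Insm1 library below every control, with means of 86.1 and 42.8 CPM for Mapt and 192 and 126 CPM for Stmn2 (neither passed in edgeR, and both did in DESeq2). The 6 basal progenitor markers summed to 1477 to 1608 CPM and 1625 to 1881 CPM, with 3 called higher and the other 3, Eomes, Neurog2 and Btg2, at log2 fold changes of -0.05, -0.12 and -0.06 without a call. In bulk RNA fewer cells of a type and less RNA per cell cannot be told apart, and the part of these markers in the values of Magi1 and Magi3 was not tested.

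On GRCm38 Magi1 (ENSMUSG00000045095) is a protein-coding gene on chromosome 6 from 93675455 to 94283917, minus strand, and Magi3 (ENSMUSG00000052539) is one on chromosome 3 from 104013259 to 104220374, minus strand. Magi2 (ENSMUSG00000040003) spans chromosome 5 from 19227036 to 20704792 on the plus strand. The promoter windows of RefSeq (GRCm38.p6, 250 bases before to 50 bases after an annotated start) are shown for these 3 paralogs, since 2 of them were lower in every Insm1 library and the other was not. Capitals mark 3 motifs searched on both strands. CAGGTG, which reads as CACCTG on the other strand, is an E-box bound by Snail and Zeb repressors. The E-box CAGCTG, which reads the same on both strands, is one that proneural factors bind. The third is CAGGGG, which reads as CCCCTG on the other strand. In the printed windows no marked stretch overlaps another. The windows of Magi3 and Magi2 lie at the 5′ ends of their genes. That of Magi1 is at an internal start, far from the 5′ end of the gene at 94283917. The windows lie at chr6:93913641-93913940 for Magi1 (minus strand), chr3:104220357-104220656 for Magi3 (minus strand) and chr5:19226796-19227095 for Magi2 (plus strand), each printed 5′ to 3′.
Magi1: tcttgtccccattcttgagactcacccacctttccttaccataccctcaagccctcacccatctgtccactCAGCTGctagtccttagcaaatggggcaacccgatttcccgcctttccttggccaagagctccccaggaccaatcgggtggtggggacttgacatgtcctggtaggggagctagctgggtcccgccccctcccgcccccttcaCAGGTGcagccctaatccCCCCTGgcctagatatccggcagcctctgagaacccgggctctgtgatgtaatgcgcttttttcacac
Magi3: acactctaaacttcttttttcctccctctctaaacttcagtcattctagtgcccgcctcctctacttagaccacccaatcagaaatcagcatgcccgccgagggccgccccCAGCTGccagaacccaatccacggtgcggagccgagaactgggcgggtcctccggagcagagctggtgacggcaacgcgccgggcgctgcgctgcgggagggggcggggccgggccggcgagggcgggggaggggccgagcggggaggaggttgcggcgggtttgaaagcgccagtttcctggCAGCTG
Magi2: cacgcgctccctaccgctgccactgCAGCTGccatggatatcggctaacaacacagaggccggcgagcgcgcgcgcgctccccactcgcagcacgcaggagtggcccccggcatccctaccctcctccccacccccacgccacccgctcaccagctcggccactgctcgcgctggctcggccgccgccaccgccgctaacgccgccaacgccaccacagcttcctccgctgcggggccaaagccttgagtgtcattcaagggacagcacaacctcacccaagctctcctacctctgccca

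The Magi1 window held 1 copy of each of the 3 motifs, the Magi3 window 2 copies of CAGCTG and the Magi2 window 1 copy of CAGCTG. Magi1 has another RefSeq start, at chr6:93912914-93913213 and also internal, whose window held none of them. No Magi1 window lay at the 5′ end of the gene. Magi2 has another start, internal as well, at chr5:19907268-19907567, with 1 CAGGTG. The 3 printed windows also differed in base composition, with 8 CG dinucleotides in that of Magi1, 26 in that of Magi3 and 29 in that of Magi2. These counts set an internal start of Magi1 beside starts at the 5′ ends of the others. All 9 members had at least 1 window, 19 in all. CAGGTG was in 4 of the 19, CAGCTG in 6 and CAGGGG in 5, and over all 32851 windows of that length the shares were 20.2%, 16.3% and 24.1%. A match describes letters in a window and is no evidence of binding.

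Tjp1 encodes zonula occludens protein 1, which links claudins and occludin to actin and also sits at the adherens junctions of neuroepithelium, where tight junctions are absent. The gene (ENSMUSG00000030516) lies on chromosome 7 from 65296165 to 65527781, minus strand. It was at 74.7, 69.3 and 81.0 CPM in the controls and at 66.3, 76.3 and 65.9 CPM in Insm1 libraries 1, 2 and 3. Insm1 library 2 was above controls 1 and 2, so the groups overlapped. For Tjp1 the log2 fold change was -0.11, with a 95% interval from -0.32 to 0.10 (adjusted p = 0.636). Within libraries the log2 ratio of Magi3 to Tjp1 counts was -1.37, -1.38 and -1.47 in the controls and -1.89, -2.01 and -1.51 in the Insm1 libraries. The log2 ratio of Magi1 to Tjp1 counts overlapped, at 0.59, 0.62 and 0.42 in the controls and 0.49, 0.07 and 0.40 in the Insm1 libraries. Among the 36 member pairs 13 had ratios without overlap between the groups, and among the 8 with Magi3 there were 7. All ratios with Magi3 use its counts, which themselves did not overlap between the groups, so the 7 are no separate results. No share over other gene pairs was counted, so neither number is read as a difference from the background. An exact permutation test of 3 libraries against 3 cannot give a two-sided p below 0.1, and the ratios between members are given as descriptions.

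The Dlg genes with roles in polarity, Dlg1 and Dlg5, did not pass. Dlg1 (ENSMUSG00000022770, chromosome 16, 31663443 to 31875129, plus strand) encodes the counterpart of the fly tumour suppressor Discs large. It was at 79.4, 89.8 and 92.9 CPM in controls 1, 2 and 3 and at 77.2, 86.5 and 82.7 CPM in the Insm1 libraries, an overlapping range. Its log2 fold change was -0.09, with a 95% interval from -0.28 to 0.10 (adjusted p = 0.687). Dlg5 (ENSMUSG00000021782, chromosome 14, 24133953 to 24245920, minus strand), a more distant relative needed for the delivery of cadherins to the membrane, was at 73.5, 62.9 and 69.2 CPM in the controls and at 65.6, 82.0 and 69.1 CPM in the Insm1 libraries. Insm1 library 2 was its highest value. It differed by 0.08 on the log2 scale, with an interval from -0.16 to 0.31 (adjusted p = 0.798), and its sign turned without Insm1 library 2 (-0.02). For both genes the unadjusted interval did not reach the log2 fold change fitted for Magi3, -0.50. The interval of Magi3 itself ran from -0.79 to -0.21, and whether either gene differs from Magi3 was not tested.

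The synaptic Dlg genes had fitted changes of different sign, and none passed. Dlg3 (ENSMUSG00000000881, chromosome X, 100767722 to 100818410, plus strand) encodes the Dlg protein known from immature synapses. It was at 62.7, 66.4 and 64.7 CPM in the controls and 52.0, 59.1 and 59.3 CPM in the Insm1 libraries, all of the latter lower. This came to -0.19 ± 0.086 (SE) on the log2 scale (adjusted p = 0.309). Dlg4 (ENSMUSG00000020886, chromosome 11, 70016942 to 70047522, plus strand) encodes the main scaffold of the mature postsynaptic density. It was at 14.4, 18.3 and 17.5 CPM in the controls and at 19.3, 18.4 and 20.0 CPM in the Insm1 libraries. These did not overlap, although Insm1 library 2 was above control 2 by a small margin. For Dlg4 the log2 difference was 0.20 ± 0.14 (SE; adjusted p = 0.534). The 95% intervals of both included 0, from -0.38 to 0.006 for Dlg3 and from -0.11 to 0.51 for Dlg4. The log2 ratio of Dlg3 to Dlg4 counts was 2.13, 1.86 and 1.89 in the controls and 1.43, 1.68 and 1.57 in the Insm1 libraries. It was lower in each of the latter, which follows from the values of the 2 genes and is no separate result.

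Dlg2 (ENSMUSG00000052572, chromosome 7, 90476672 to 92449247, plus strand), a postsynaptic relative of Dlg4, was the lowest member. It had 122, 62 and 89 counts in controls 1, 2 and 3 and 116, 142 and 103 counts in the Insm1 libraries. In CPM these were 3.95, 2.01 and 2.91 and then 3.75, 4.60 and 3.33, with control 1 above 2 of the Insm1 libraries. Its log2 fold change was 0.40, with a 95% interval from -0.30 to 1.10 (adjusted p = 0.599), the widest interval of the 9. Stretches of exon are shared with non-coding genes in GENCODE M21 by Magi2 (203 bases), Dlg5 (126 bases) and Dlg2 (75 and 150 bases), none of them counted as a gene of its own in the table.

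**Figure D2:**
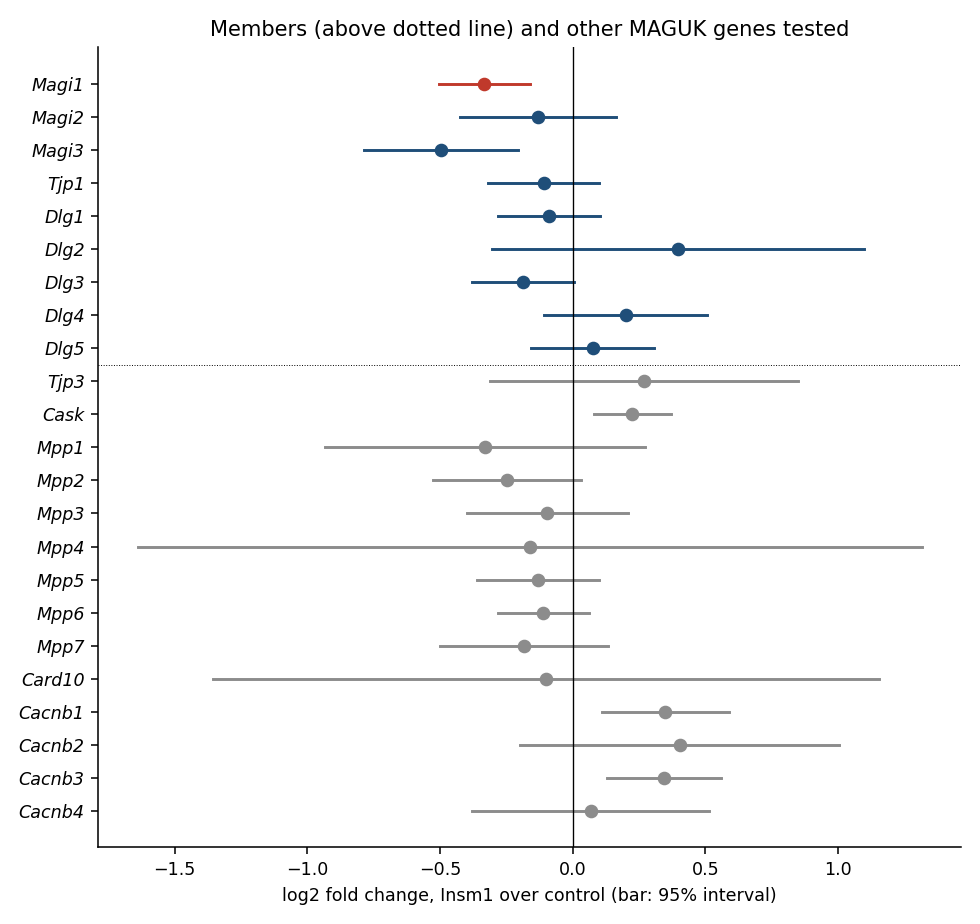
Log2 fold changes of Insm1 over control (points) with unadjusted 95% intervals (bars) from the fit across all genes, for the 9 members above the dotted line and 14 of the 15 other MAGUK genes tested below it. Magi1, the called gene, is red. The intervals of Magi1 and Magi3 lie below 0 and those of Cask, Cacnb1 and Cacnb3 above it, although only Magi1 passed after adjustment.

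Levels of different genes can be compared only per length, and the length chosen decides much of the order here. The deposited TPM values equal counts divided by the whole genomic span of a gene. For 97.2% of 10137 genes in control 1 the implied length matched the GENCODE M21 span within 5%, and for 4.87% it matched the summed exons. The exons make up 0.768% of the span of Magi2, 0.825% of that of Dlg2 and 1.74% of that of Magi1, but 43.3% of that of Dlg4. In the deposited table Magi2 was therefore at 0.256 ± 0.024 TPM (SD, n = 3) and Dlg2 at 0.0197 ± 0.0065 TPM in the controls, while Dlg4 at 5.24 ± 0.66 TPM ranked 3 among the 9.

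Recomputed over the union of annotated exons, Dlg3 was the highest member in the controls at 40.4 ± 1.16 TPM (SD, n = 3), above all controls of Magi1 at 37.7 ± 1.34 TPM. Tjp1 followed at 35.1 ± 3.34 TPM, Dlg1 at 29.7 ± 2.66 TPM and Dlg5 at 29.5 ± 2.55 TPM. From Magi1 to Dlg5 each gene overlapped the next in its control libraries. Magi2 came next at 13.7 ± 1.24 TPM and overlapped Magi3 at 12.1 ± 0.792 TPM. Dlg4 at 4.61 ± 0.573 TPM and Dlg2 at 0.663 ± 0.219 TPM were the lowest and overlapped no neighbour. In the Insm1 libraries Magi1 was at 28.8 ± 2.27 TPM, below Tjp1 at 31.3 ± 2.53 TPM and Dlg5 at 29.9 ± 3.48 TPM by its mean but overlapping Tjp1, and Magi3 at 8.26 ± 1.15 TPM no longer overlapped Magi2. Taken over the longest protein-coding transcript, the order of the upper 5 changed, with Dlg1 highest at 37.1 ± 3.30 TPM, but the order of Magi2, Magi3, Dlg4 and Dlg2 in the controls did not.

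**Figure D3:**
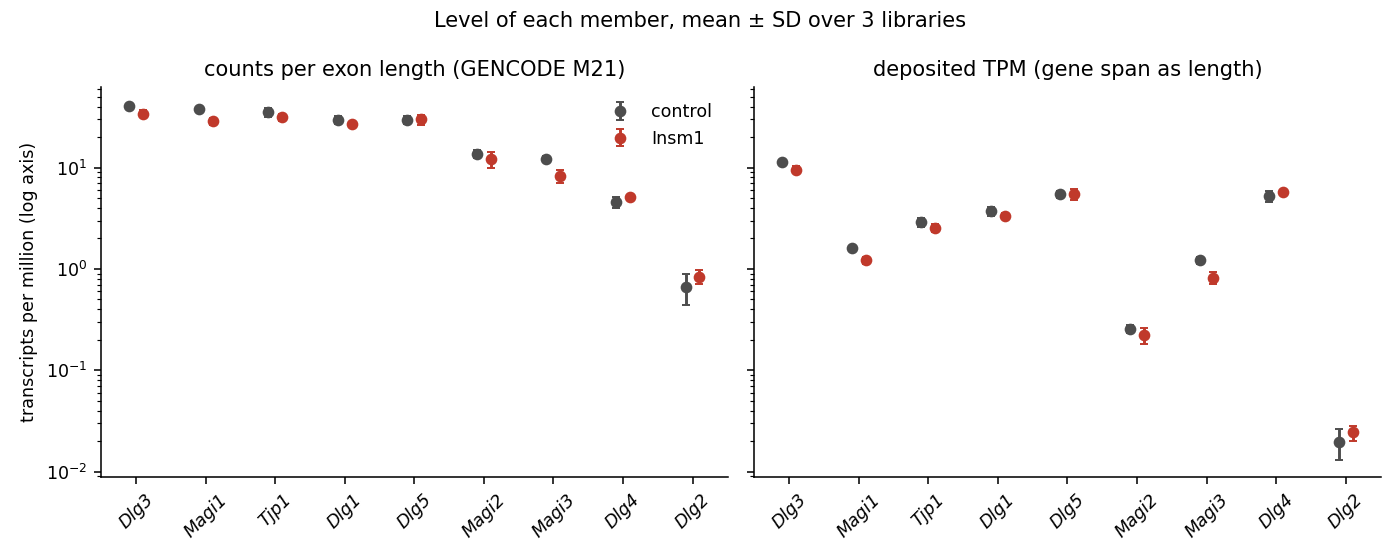
Mean level of each member in control (grey) and Insm1 (red) libraries with SD bars (n = 3), on a log axis, computed from counts per summed exon length (left) and as deposited (right). Dlg4 ranks 8 by exon length and 3 as deposited, and the ratio of the highest to the lowest control mean is 60.8 on the left and 578 on the right.

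Within the Dlg genes 1 to 4, summed over exon-length TPM, Dlg3 and Dlg1 supplied most of the total. Dlg3 made up 55.2%, 53.5% and 52.2% in the controls and 50.1%, 51.0% and 51.9% in the Insm1 libraries, and Dlg1 between 38.0% and 40.8% in all 6. The share of Dlg4 was 5.58%, 6.49% and 6.23% in the controls and 8.18%, 7.0% and 7.71% in the Insm1 libraries, higher in each. Dlg2 stayed between 0.582% and 1.42%. In the Magi family Magi1 supplied 54.6% to 63.2% in the 6 libraries, with overlapping groups. The share of Magi3 was 18.8%, 18.8% and 19.6% in the controls and 15.1%, 17.2% and 18.1% in the Insm1 libraries. The summed level of the Magi genes was 65.5, 59.6 and 65.2 TPM in the controls and 49.2, 45.2 and 53.0 TPM in the Insm1 libraries, lower in all 3. 

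**Figure D4:**
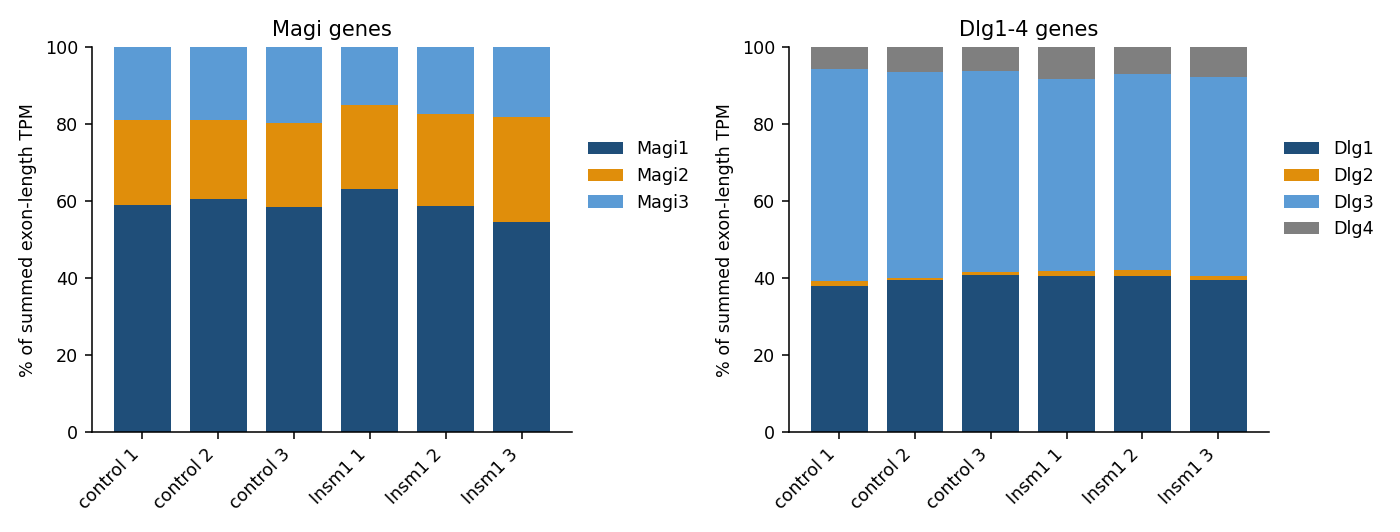
Stacked bars give each gene's percentage of the summed exon-length TPM of its family in each library, for Magi1 to Magi3 (left) and Dlg1 to Dlg4 (right). Dlg3 shrinks and Dlg4 grows slightly in the Insm1 libraries, and Dlg2 is barely visible.

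By a Pearson r of log2 CPM over the 6 libraries, among 9881 genes with a proper symbol and at least 5 CPM on average, the patterns most like that of Magi1 were those of Veph1 (0.995), Ntrk2 (0.992) and Cad (0.990). The neurotrophin receptor gene Ntrk2 went from 54.1 ± 3.68 to 25.6 ± 4.02 CPM (SD, n = 3; adjusted p = 0.00525). Veph1 went from 11.6 ± 1.09 to 6.07 ± 1.20 CPM (adjusted p = 0.0347). Cad, which encodes the enzyme that starts pyrimidine synthesis, was at 119 ± 6.54 and 93.5 ± 9.44 CPM and did not pass (adjusted p = 0.0644). Picking genes by likeness to Magi1 over the same 6 libraries favours genes that fall with it. Their lower values in the Insm1 group are therefore no separate result.

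Other MAGUK genes were not called in either direction. Of 17 listed genes 15 were tested and all 15 failed to pass, with 6 positive and 9 negative and a median of -0.10. At an unadjusted p below 0.05 there were 3, a number with no share of all genes to set it against. DESeq2, which called 7.6% of its genes in either direction, called those 3 higher. Cask, the MAGUK with a kinase-like domain that works with Lin7 proteins, was at 152, 151 and 147 CPM in the controls and 167, 187 and 172 CPM in the Insm1 libraries (adjusted p = 0.103, and 0.0323 in DESeq2). Cacnb3, which encodes a guanylate kinase-like beta subunit of voltage-gated calcium channels, was at 84.6, 69.9 and 88.8 CPM and at 98.5, 109 and 102 CPM (adjusted p = 0.0908, and 0.0154 in DESeq2). The third of these was Cacnb1, another calcium channel beta subunit, at 42.1 ± 4.06 and 53.7 ± 5.05 CPM (SD, n = 3), and did not pass in edgeR (adjusted p = 0.121, and 0.042 in DESeq2). Cacnb1 is named after its values were seen. In all 3 genes each Insm1 library was above each control. Over all genes tested the groups did not overlap in 22.2%. The 3 are also those of this list with the unadjusted p below 0.05, so their separation is no separate result. Mpp5, another junctional MAGUK, had a log2 fold change of -0.13 (adjusted p = 0.596).

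The list of junction partners drawn up around Tjp1 and the Magi scaffolds, not all of them direct binders, held 25 genes, of which 21 were tested. Of these 3 fell, 1 rose and 17 did not pass, with a median of -0.07. Over all genes 2.12% were called lower and 1.23% higher. Ybx3, a DNA-binding protein held at junctions by Tjp1, was at 103, 104 and 114 CPM in the controls and 74.1, 81.7 and 69.4 CPM in the Insm1 libraries, 1.42-fold lower (adjusted p = 0.0118). The gap junction gene Gja1, whose connexin docks on Tjp1, was at 82.5, 61.9 and 73.2 CPM and at 48.6, 52.2 and 36.2 CPM, 1.59-fold lower (adjusted p = 0.0391). Plekha7, the adherens junction protein named in the study's title, was 1.77-fold lower (adjusted p = 0.0495). It was listed with that title known, so its call adds no weight to the 3 that fell. Arhgef2, a nucleotide exchange factor that the tight junction protein cingulin holds inactive, rose from 234, 234 and 228 CPM to 282, 289 and 298 CPM, 0.32 ± 0.055 (SE) on the log2 scale (adjusted p = 0.0136). None of these 4 kept its call in all 6 fits without a library. Ybx3 lost it without control 3 or Insm1 library 3, Arhgef2 without control 3 or Insm1 library 2 or 3, Gja1 without each library but control 2, and Plekha7 without each but Insm1 library 1, with the highest adjusted p of these fits at 0.0666, 0.0755, 0.147 and 0.164 in that order. Ocln, the occludin gene, was too low to be tested, at 0.140 ± 0.146 and 0.345 ± 0.401 CPM (SD, n = 3).

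Among postsynaptic partners of the Dlg proteins 4 genes fell. Of 15 postsynaptic density scaffolds 1 fell, none rose and 14 did not pass, with a median of -0.17, and over all genes 2.12% were called lower, so a count of 1 does not set this list apart. That was Dlgap1, which binds the guanylate kinase-like domain of Dlg4, at 10.2, 8.34 and 9.96 CPM in controls 1, 2 and 3 and 4.91, 2.33 and 2.78 CPM in the Insm1 libraries, 2.84-fold lower (adjusted p = 0.0211). Of 17 synaptic membrane partners tested among 20 listed, 3 fell, none rose and 14 did not pass, with a median of -0.30. The NMDA receptor subunit gene Grin2b was at 23.0, 10.6 and 18.3 CPM and then 1.84, 1.69 and 3.46 CPM (adjusted p = 0.00536). The gene Nlgn1, a neuroligin that binds Dlg4, was at 38.5, 25.2 and 33.0 CPM and then 14.7, 19.8 and 18.7 CPM, 1.82-fold lower (adjusted p = 0.0263). Lgi1, a secreted ligand of the Dlg4 partner Adam22, was at 3.89, 1.72 and 3.30 CPM and at 0.129, 0.097 and 0.453 CPM, -3.69 ± 0.63 (SE) on the log2 scale (adjusted p = 0.0129). Control 2, in which Cajal-Retzius transcripts were scarce, was the lowest control in all 4 of these genes. Cajal-Retzius markers summed to 35.3 to 51.4 CPM in the Insm1 libraries, and interneuron markers moved the same way, as given above. The part of those cells in the falls was not tested. Without control 2 the postsynaptic list had 1 call and the membrane list 4. Only Grin2b was called with each library left out, at an adjusted p of at most 0.0325. Dlgap1 lost its call without control 1, control 3, Insm1 library 2 or Insm1 library 3 (up to 0.104), Lgi1 without control 1, control 3 or Insm1 library 2 (up to 0.0707) and Nlgn1 without each library but control 2 (up to 0.122). Dlg4 itself was not lower in any Insm1 library.

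The remaining partners gave no calls. Among the Scribble and Lgl polarity genes 10 were tested and none passed, with 5 positive and 5 negative and a median of 0.01. Llgl1, the most abundant, was at 320 ± 9.34 and 337 ± 21.1 CPM (SD, n = 3), for which the adjusted p was 0.629, and Erbb2ip, which encodes a basolateral protein related to Scribble, at 245, 236 and 246 CPM in the controls and 228, 240 and 213 CPM in the Insm1 libraries (adjusted p = 0.518). Of 7 Lin7, Mint, Caskin and Patj genes tested none passed, and Lin7c was at 406 ± 27.5 and 429 ± 39.3 CPM (adjusted p = 0.694). The Mint gene Apba2 was at 105 ± 8.35 and 121 ± 8.62 CPM (adjusted p = 0.252). Of 9 genes for spindle orientation and transport of Dlg proteins none passed, among them the kinesin gene Kif1b at 691 ± 33.1 and 695 ± 59.0 CPM (adjusted p = 0.973) and the spindle protein gene Numa1 at 388 ± 26.3 and 425 ± 20.1 CPM (adjusted p = 0.358). In the order named, these 3 lists held 2, 3 and 3 genes at an unadjusted p below 0.05. DESeq2 called 1 of their genes, Lrrc7, named after its values were seen, on the first list and 0 on the others. At the same unadjusted level there were 10 of 21 junction partners, 5 of 15 postsynaptic density scaffolds and 7 of 17 synaptic membrane partners. No share of all genes was counted at that level, so none of these numbers is read as a difference from the background.

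**Figure D5:**
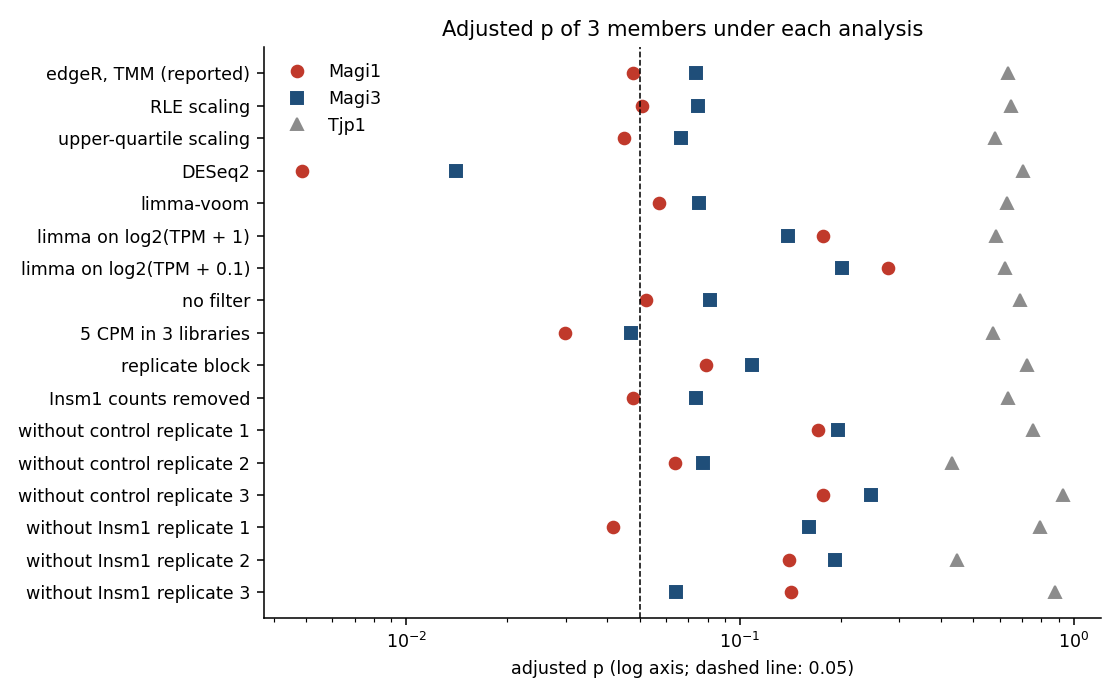
Adjusted p (log axis) of Magi1, Magi3 and Tjp1 in the reported fit and in 16 alternatives, with a dashed line at 0.05. Magi1 crosses to the right of the line under 11 alternatives, Magi3 lies left of it under DESeq2 and the filter at 5 CPM, and Tjp1 stays between 0.432 and 0.928.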

How the data were processed

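RNA was measured in 6 libraries, 3 of each group. The tools listed, per the submitters' processing notes, are TopHat2 2.0.13, Bowtie and bcl2fastq, and the build is GRCm38. How reads were assigned to genes (program, strand, intronic reads, annotation) is not given in the sources used here. Deposited by the authors were whole-number counts per Ensembl gene, with totals of 30017645 to 31645135, and TPM values whose length is the genomic span (333 genes have none). Whether the libraries carried molecular identifiers is not known here. Pairs of one group differed by a chi-square per degree of freedom of 12.9 to 32.5, so counting error is only part of the spread. Each library counted as 1 sample.

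Genes were filtered by filterByExpr, scaled by TMM and compared with edgeR 4.0.16 in R 4.3.3 (robust quasi-likelihood fit to group alone, two-sided). Standard errors and 95% intervals come from its F statistic. Alternatives used DESeq2 1.42.0 on the whole table with its default independent filtering, limma 3.58.1 (voom, and log2(TPM + 1) or log2(TPM + 0.1) with trend), RLE and upper-quartile scaling, no filter, at least 5 CPM in 3 libraries, a replicate block, removal of the Insm1 counts, and each library left out with filtering repeated. Exon-length TPM used 21492 of 22001 genes found in GENCODE M21, and was added after seeing the data because the planned comparison of deposited TPM rests on the span. The fit was tested on simulated counts of 13560 genes and recovered 4.82% of 83 genes given a 1.25-fold change, 47.3% of 55 at 1.5-fold and 71.0% of 62 at 2-fold, while calling 5 unchanged genes.

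The members and the 20 gene lists were chosen with earlier results of these data known. Genes named are the 9 members, Insm1 and Plekha7, up to 5 called genes of each list or else its 2 most abundant, the most abundant marker of a cell type, and the 3 patterns most like a called member. Lists of other cell types are given by their sums, and exceptions, named after their values were seen, are the apical markers that passed, Mapt, Stmn2, Eomes, Neurog2, Btg2, Cacnb1, Mpp5, Ocln, Lrrc7, Dlgap3, Dlgap4 and Nlgn2. Values of some genes on the lists are not reported here.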

Additional observations from a re-analysis of the deposited data

How the results depend on the processing

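Of all genes tested, 454 were called, 1022 with DESeq2, 60 and 64 with limma on log2(TPM + 1) and log2(TPM + 0.1), and 101 to 631 with single libraries left out (101 without control 3, 176 and 196 without Insm1 libraries 2 and 3, 221 without control 1). Of the 9 members 1 was called. The count was 0 with RLE scaling, limma-voom, either limma fit to TPM, no filter or the replicate block, 2 with DESeq2 or the filter at 5 CPM, and 0 to 1 with single libraries left out. Of the 94 genes tested in the other lists of scaffolds and partners 8 were called, 15 with DESeq2, 0 and 1 with limma on log2(TPM + 1) and log2(TPM + 0.1), 5 with the replicate block, and 1 to 8 with single libraries left out. Magi1 ranged from -0.39 to -0.23 and Magi3 from -0.61 to -0.28 over 16 alternatives, with adjusted p up to 0.277 and 0.247. The smallest drops of both (-0.23 and -0.28) came from log2(TPM + 1), where 1 is large beside TPM values that the gene span has made small. Dlg5 reversed without Insm1 library 2 (-0.02448), and with single libraries left out it lay between -0.02448 and 0.1416; no other member changed sign. The ratio of the highest to the lowest member in the controls was 60.8 by exon length, 578 in deposited TPM, 584 for TMM-scaled CPM over the length implied by counts and TPM, and 37.6 over the longest coding transcript. Insm1 kept its call under all 15 alternatives that hold it.

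The replicate block left 331 genes called among all tested and took Magi1 out (adjusted p = 0.0793). Libraries with the same number had deviations from their group means that correlated with r of 0.074, 0.035 and -0.055. These values show no pairing by number, and they cannot exclude one. Dlg2 had 62 to 142 counts a library; depth and spread between libraries were not separated.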

Other observations

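Between summed exons and gene span the level of Magi2 differed by a factor of 53.5, that of Dlg2 by 34.2 and that of Magi1 by 23.7, while Dlg4 differed by 0.883.

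Dlg4 and its partner Dlgap1 had opposite signs in these libraries, 0.20 and -1.50 on the log2 scale. The related Dlgap3 and Dlgap4 had log2 fold changes of 0.62 and 0.16 (adjusted p = 0.112 and 0.195), with every Insm1 library above every control in both, and Nlgn2, the neuroligin of inhibitory synapses, had 0.37 (adjusted p = 0.139) beside -0.86 for Nlgn1. These genes were picked after their values were seen, and whether the members of each pair differ was not tested.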
